A study of Arabidopsis thaliana with 6 samples.

Results

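The genes described here encode 5 glycine-rich proteins of the Arabidopsis cell wall class: GRP5 (AT3G20470), GRP23 (AT2G32690), GRP9 (AT2G05440), GRP3 (AT2G05520) and GRP3S (AT2G05380). They were taken by name and class from 27444 nuclear protein-coding genes, with their peaks of EBS, a chromatin protein, already known. Peaks were counted for a gene when they lay on its body or within 1000 bp of either end. Since the peak lists themselves entered the choice of genes, all values below are descriptions and no test was made on them.

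EBS (EARLY BOLTING IN SHORT DAYS) delays flowering and binds methylated tails of histone H3. Chromatin immunoprecipitation with sequencing (ChIP-seq), in which DNA bound by a protein is pulled down and read, was used to locate it in 3 EBS ChIP samples, with 3 input DNA samples alongside. All 6 samples came from whole Col-0 seedlings about 10 days old, kept in 16 h of light and 8 h of dark, and no treatment was given. All carried the ebs and shl mutations, SHL being the close relative of EBS, together with a transgene that expresses FLAG-tagged EBS from the native EBS promoter. The ChIP samples were collected with an anti-FLAG antibody, and a ChIP of untagged plants was not part of the 6. Each ChIP sample has its own peak list, and no separate values of the input samples were used here.

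Glycine-rich proteins of the wall are secreted, repetitive proteins in which glycine is the commonest residue. With extensins and proline-rich proteins they make up the structural proteins of plant cell walls, and their genes are often active in epidermis and vascular tissue. GRP3 is known to bind the extracellular part of the receptor kinase WAK1, and GRP9 to bind CAD5, an enzyme of lignin synthesis. GRP5 acts in cell elongation and has also been placed in the vacuole, so the class name fits it less securely than the others. GRP3S is named in the gene table as the short isoform of GRP3, although it is a separate locus.

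The lists held 5237, 4216 and 3661 nuclear peaks in replicates 1, 2 and 3, with median widths of 699, 880.5 and 652 bp. Each peak has a score given by the authors; MACS, the caller named by the submitters, writes there the negative log10 of the p-value multiplied by 10. Scores began at 20, which is a MACS p-value of 0.01 on that scale. They piled up at 3100, which 88, 97 and 46 peaks reached or passed in replicates 1, 2 and 3. They depend on the depth of their own sample, which the lists do not give, and were therefore ranked within each list as a percentile. The labels do not tell whether the replicates were grown separately, and their spread can be technical.

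The 5 genes fell into 3 kinds. GRP5 and GRP23 carried strong peaks in every list, GRP9 carried weak peaks in every list, and GRP3S and GRP3 had a peak in 1 list and in none. In replicates 1, 2 and 3, 3, 4 and 3 of the 5 genes had a peak, where 20.8%, 17.1% and 11.7% of all protein-coding genes had one. GRP5, GRP23 and GRP9 had a peak in each of the 3 lists, as did 6.09% of all protein-coding genes. In all 3 of these members a peak of each list touched the gene body (3.75% of all genes), and peaks of the 3 lists joined into 1 merged region (6.68% of all genes). Because the genes were chosen from these lists, nothing is read from the difference between these shares.

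**Figure D1:**
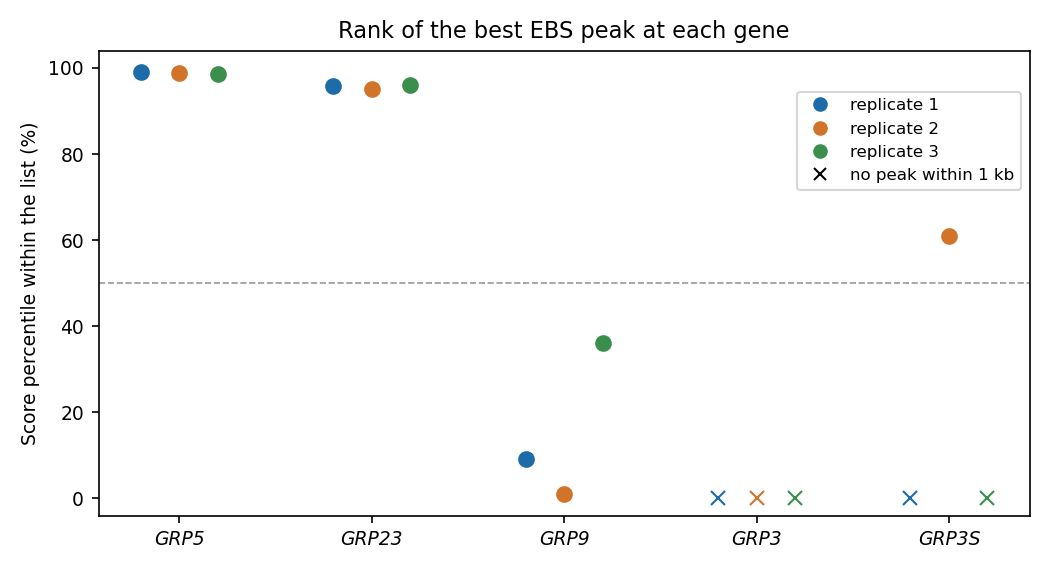
Percentile of the best peak score at each gene within its own list (vertical axis, %), for replicates 1 to 3 (coloured points), with crosses at 0 for genes that had no peak on the body or within 1 kb and a dashed line at the middle of a list. GRP5 and GRP23 lie above 95% in every replicate, GRP9 lies at 36.1% or below, and GRP3S has a single point at 60.9%.

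GRP5 had the strongest peaks of the 5 genes. The replicate 1 peak lay on chromosome 3 from 7140023 to 7141469 (TAIR10) with a score of 3100. The replicate 2 peak ran from 7139624 to 7141880, also with 3100, and the replicate 3 peak from 7140182 to 7141413 with 3024. These scores were at the top of each list: only 88 of 5237, 97 of 4216 and 52 of 3661 peaks scored as high or higher. The percentile was 98.9% ± 0.28 (SD, n = 3), a spread that the ties at 3100 in replicates 1 and 2 limit. Replicate 3 held a second, weak peak beside the gene, from 7141458 to 7141946, with a score of 24.8, at 105 bp from the gene's end.

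The called peaks on GRP5 spanned the whole gene in each list. The lists give no summits, so where on the gene the enrichment centred cannot be told. The gene spans 1060 bp in the table, and each of the 3 peaks contained all of it, with overhangs of 271, 670 and 112 bp on the side of lower coordinates. On the other side the overhangs were 116, 527 and 60 bp in replicates 1, 2 and 3. The stretch shared by all 3 peaks, 1232 bp long, was that of the replicate 3 peak. The midpoints of the peaks lay at -77.5, -71.5 and -26 bp from the midpoint of the gene, negative values being on the side of lower coordinates. A whole gene inside a peak in each list was found for 54 protein-coding genes (0.197%), and for 8 of the 4796 genes of 1000 to 1600 bp (0.167%). Peak midpoints within 100 bp of the gene's midpoint in each list were found for 26 genes (0.0947%), of which GRP5 was one.

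GRP23 carried peaks almost as high in rank. In replicate 1 the peak lay on chromosome 2 from 13863786 to 13865230 with a score of 1700. In replicate 2 it ran from 13863046 to 13865730 with 2038, and in replicate 3 from 13863539 to 13864915 with 1767. The 3 replicates thus placed GRP23 at closely similar ranks, and 219, 207 and 145 peaks of the lists scored as high or higher. Its percentile was 95.7% ± 0.50 (SD, n = 3), below that of GRP5 in every replicate. Both genes had a score of at least 1000 in each list, which 1.21% of protein-coding genes did.

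The GRP23 peaks sat less evenly than those on GRP5. The gene, 1076 bp long, lay wholly inside the replicate 2 and 3 peaks, whereas the replicate 1 peak covered 86.0% of it and left out the end with the lower coordinates. Overhangs on the side of higher coordinates were 520, 1020 and 205 bp in replicates 1, 2 and 3. The midpoints of all 3 peaks were shifted to that side, by 336, 216 and 54.5 bp. As on GRP5, the replicate 2 peak was the widest (2685 bp, against 1445 and 1377 bp in replicates 1 and 3), in the list that also had the largest median width. Mean peak width was 1836 ± 736 bp at GRP23 and 1645 ± 541 bp at GRP5 (SD, n = 3 each), a spread that includes the wide replicate 2 peaks. List by list, the GRP5 peaks were 1447, 2257 and 1232 bp wide in replicates 1, 2 and 3. The difference in width between the 2 genes was not tested.

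**Figure D2:**
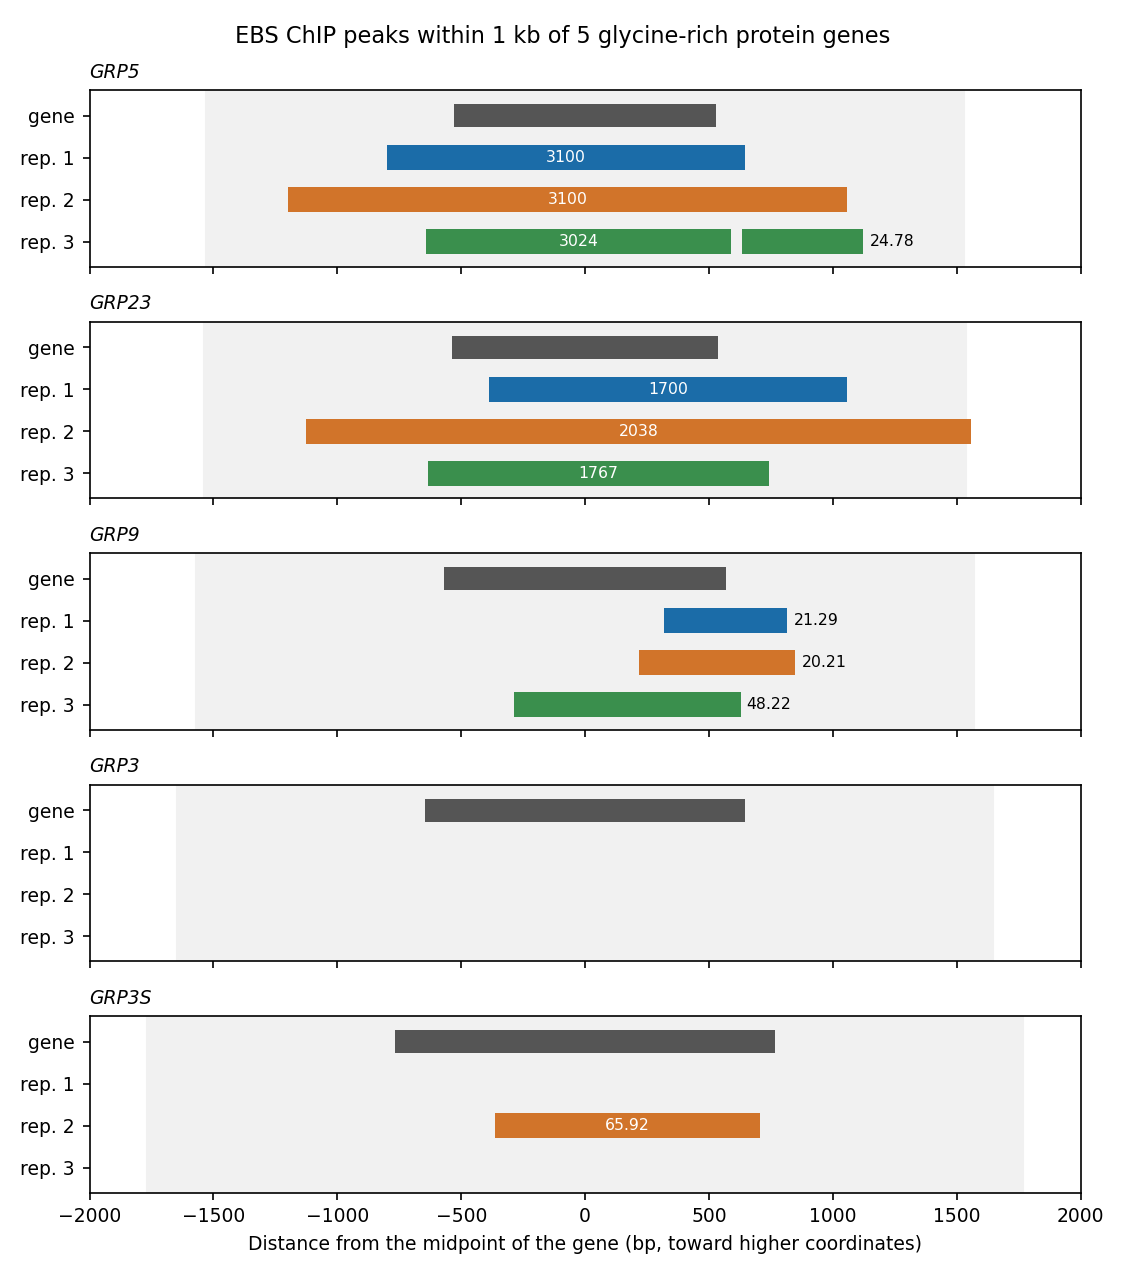
Peaks of replicates 1 to 3 (coloured bars, with scores) at each gene (dark bar), against distance from the gene's midpoint in bp toward higher coordinates; the grey band is the gene with 1000 bp on either side. The GRP5 bars contain the whole gene in every replicate, the GRP9 bars gather at the end with higher coordinates, and GRP3 has no bar.

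GRP9 had a peak in each list, with a score below the median of its list each time. The peaks lay on chromosome 2 from 1993928 to 1994423 in replicate 1, from 1993824 to 1994455 in replicate 2 and from 1993320 to 1994234 in replicate 3. Their scores were 21.3, 20.2 and 48.2. Those of replicates 1 and 2 were close to the lowest score of 20 in the lists, a MACS p-value of 0.01. The percentile was 9.10%, 1.13% and 36.1%, so the replicate 2 peak was among the lowest of its list. A peak in each list with a best score under 100 throughout was found for 0.889% of protein-coding genes.

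All 3 GRP9 peaks covered the end of the gene with higher coordinates. They took in 21.9%, 31.1% and 75.3% of its 1140 bp in replicates 1, 2 and 3. The 307 bp common to the 3 peaks, from 1993928 to 1994234, overlapped the gene by 250 bp. In replicates 1 and 2 the peak ran on past the gene and touched the transcribed pseudogene AT2G05441, which starts 185 bp from GRP9, by 62 and 94 bp. The replicate 3 peak did not reach that pseudogene and lay to 93.8% on GRP9. On which of the neighbouring loci the enrichment centred cannot be told apart in replicates 1 and 2, since the lists give no summits.

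GRP3S and GRP3, a pair with related names, differed from the other members in having no peak in most lists. GRP3S had a single peak, in replicate 2, on chromosome 2 from 1967013 to 1968081, with a score of 65.9. It stood at 60.9% of its list and lay entirely on the gene, of which it covered 69.7%. In replicates 1 and 3 the nearest peaks were those on GRP9, more than 25 kb away. A peak in replicate 2 alone was found for 6.43% of protein-coding genes.

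GRP3 had no peak within 1000 bp in any list, as was the case for 68.3% of protein-coding genes. The nearest one in replicate 1 fell just outside the distance used, 1257 bp from the gene, from 2024284 to 2024734 with a score of 24.6. In replicates 2 and 3 the nearest peaks were 5916 and 6345 bp away, with scores of 33.2 and 33.7. Just outside the distance at GRP23 lay 2 further weak peaks, 1165 bp away in replicate 2 (score 26.8) and 1659 bp away in replicate 1 (score 43.2). The lists hold only peaks above the caller's threshold, so a missing peak does not show that EBS was absent.

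GRP9, GRP3 and GRP3S lie on one stretch of chromosome 2, in the order GRP3S, GRP9 and GRP3, with 24.9 kb between GRP3S and GRP9 and 31.8 kb between GRP9 and GRP3. From GRP3S to AT2G05580, a further 28.2 kb beyond GRP3, the stretch spans 90.1 kb and holds 11 genes that encode proteins, 15 pseudogenes and 2 loci of non-coding RNA. It contained 5, 4 and 5 peaks in replicates 1, 2 and 3, and 6 of the 11 protein-coding genes had no peak in any list, where 68.3% of all protein-coding genes had none. Most of these peaks were weak: 1, 1 and 2 of them had a score of at least 100.

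The strong peak of the stretch was not on a member but on AT2G05580, a protein-coding gene of 1227 bp with no name in the table. It scored 3100 in replicates 1 and 2 and 3203 in replicate 3. The peaks ran on chromosome 2 from 2055507 to 2056989, from 2055332 to 2057327 and from 2055510 to 2056843, and each contained the whole gene, as at GRP5. AT2G05580 was among 4 genes of the stretch listed here as glycine-rich neighbours of the members. Their names and synonyms in the table do not use that word, and product descriptions were not searched. The other 3 had lower scores. AT2G05510 reached 23.2 in replicate 1 and 102 in replicate 3 and had no peak in replicate 2, AT2G05540 had 33.2 and 33.7 in replicates 2 and 3 alone, and AT2G05530 had none. Of the 11 protein-coding genes along these 90.1 kb, 2 had a peak in each list, GRP9 and AT2G05580.

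**Figure D3:**
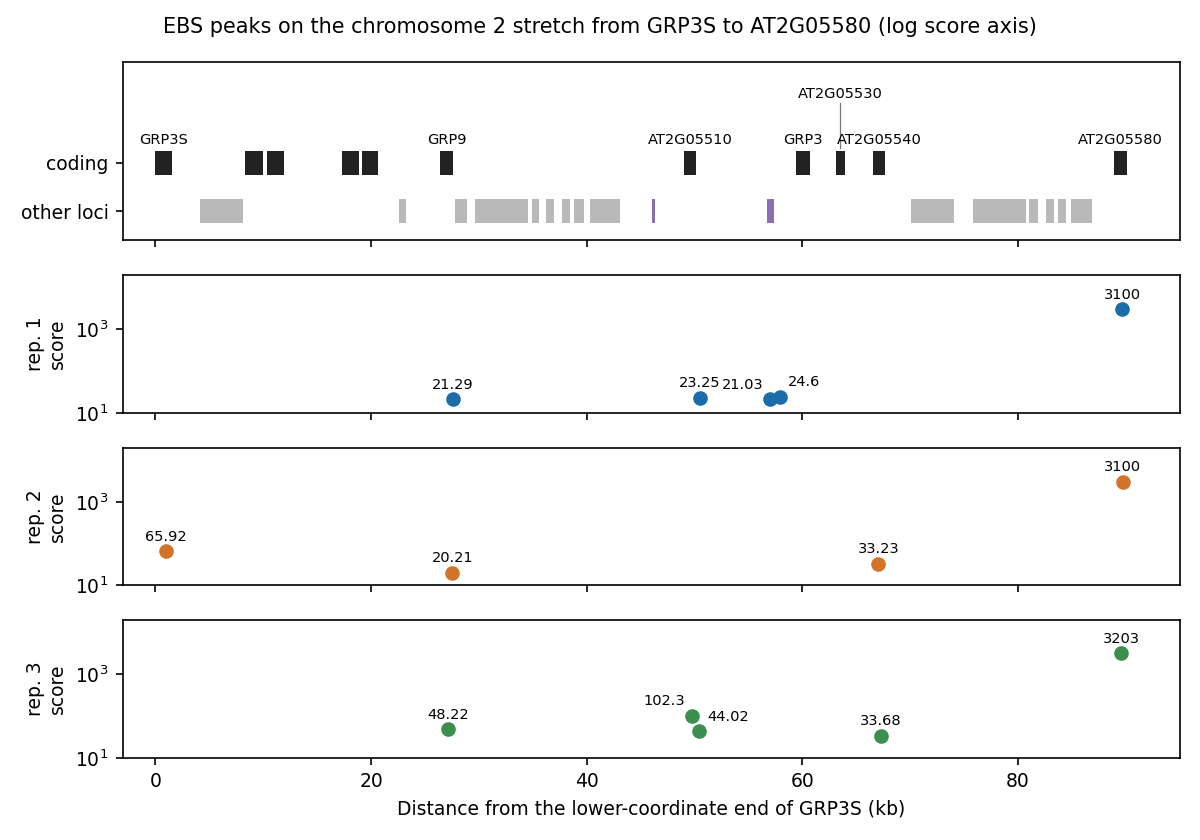
Genes (upper panel: protein-coding genes in black, pseudogenes in grey, non-coding RNA loci in purple) and peak scores by replicate (lower panels, log axis) along the chromosome 2 stretch, against distance in kb from the lower-coordinate end of GRP3S. Each list has a score of 3100 or more at AT2G05580 and scores of 48.2 or less at GRP9, and no point lies on GRP3.

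The members share a short gene length that the choice did not use. They span 1060 to 1533 bp (GRP5 1060, GRP23 1076, GRP9 1140, GRP3 1293 and GRP3S 1533 bp), below the median of 2078 bp over all protein-coding genes, and 17.6% to 31.3% of genes are as short. Within this group the shorter genes were also those with peaks in each list, a description over 5 genes. Among all 4796 protein-coding genes of 1000 to 1600 bp, 7.19% had a peak in each list, close to the 6.09% of all genes. Their surroundings differed in the share of the 100 kb bin that protein-coding genes filled, counted from end to end with introns. It was 76.9% and 77.4% for the bins of GRP5 and GRP23. The bin that GRP9 and GRP3S share had 31.8%, and that of GRP3 had 16.5%.

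Neighbouring genes can share a peak within the distance used, and this was so for both strong members. AT3G20460, 650 bp from GRP5, was credited with the GRP5 peaks in every list, although the replicate 2 peak alone touched its body, by 21 bp. MSH5, a gene of meiotic recombination 2065 bp on the other side, had no peak in any list. RLP23, which encodes a receptor-like protein of immunity and lies 1021 bp from GRP23, was credited with the GRP23 peaks of replicates 2 and 3 and had a separate peak of score 43.2 in replicate 1. LUH, which encodes a transcriptional co-repressor 2011 bp on the other side, was within reach of the GRP23 peak of replicate 2 alone. A separate weak peak of replicate 2, from 13865875 to 13867524 with a score of 26.8, ran onto the body of LUH. The peaks on GRP5 and GRP23 overlapped no other gene body than AT3G20460. GRP9, GRP3 and GRP3S shared no peak with a neighbouring protein-coding gene within the distance used. Of their nearest protein-coding neighbours, AT2G05510, between GRP9 and GRP3, had the peaks of replicates 1 and 3 given above, and AT2G05430, AT2G05370, AT2G05400 and AT2G05530 had no peak in any list.

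Genes with the most similar pattern were sought by the distance between the 3 percentiles, over 3 replicates and leaving out genes that share a peak with the member. For GRP5 they were AT1G07135 and its neighbour SIRANBP, which share peaks of 3100, 3100 and 3056, and BBX15 with 3100, 3100 and 2900, each 0.082 percentile points away. For GRP23 they were AT3G27415, AT3G27416 and AT3G27420, which share peaks of 1647, 2121 and 1753 and lay 0.43 points away. Within 5 points of GRP5 and GRP23 lay 184 and 191 genes, and 1 gene lay that close to GRP9. Top scores tie at 3100 and a missing peak counts as 0, so these counts do not compare how common the patterns are. Peaks in each list with best scores under 100 were found for 0.889% of protein-coding genes, and scores of at least 1000 in each for 1.21%. The gene closest to GRP9 was AT1G79950, which scored 21.5 in replicate 1 and 42.9 in replicate 3 and had no peak in replicate 2. CJD1 and AT1G08645, which share peaks of 20.9 and 40.5 in the same lists, followed at 5.03 points.

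The known binding partners of GRP3 and GRP9 were looked up with their relatives. WAK1 to WAK5, wall-associated receptor kinases, KAPP, a phosphatase that binds receptor kinases, and CAD5 make 7 genes, and none had a peak on the body or within 1000 bp in any list, the state of 68.3% of all protein-coding genes. In a list of 14 extensin, leucine-rich repeat extensin and proline-rich protein genes, 4 had a peak in each list, against 6.09% of all protein-coding genes. These were LRX3 with 3100 in every list, PRP2 with 671, 600.2 and 502, AT5G25550 with 405, 548 and 446, and AT4G18670 with 117, 208 and 76.8 in replicates 1, 2 and 3. Another 7 of the 14, among them EXT3 and EXT4, had no peak, against 68.3% of all protein-coding genes.

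Other proteins that are named glycine-rich but are not of the wall class were covered as well. The names and synonyms in the table call 15 further protein-coding genes glycine-rich, which leaves out genes without such a name. All 15 are RNA-binding, cold-shock or pollen-coat oleosin genes of the related lists, which were chosen with earlier results known. Of the 15, 10 had a peak in each list, against 6.09% of all protein-coding genes, although neighbours among them share peaks. The highest ranks were those of GRP7, GRP8 and GRP2, with 3100 in every list, followed by the neighbours GRP19 and GRP20, which share peaks of 2219, 2766 and 1322. GRP14, GRP16, GRP18, GRP2B and GR-RBP3 were the others with a peak in each list. GR-RBP3 had low scores of 24.6, 20.04 and 29.3, where GRP9 had 21.3, 20.2 and 48.2. CSP3, a cold-shock protein gene without glycine-rich among its names in the table, also had a peak in each list, with 89.0, 48.3 and 315. Strong peaks beside weak or missing ones were thus also found among these genes, and the difference between the classes was not tested.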

How the data were processed

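EBS ChIP-seq peak lists of 3 samples were analysed. The tools were MACS 1.4, SAMtools 1.3 and Bowtie2 2.2.8 on build TAIR10, per the submitters' processing notes. Neither the threshold nor the use of the input is stated there. Each ChIP sample has a list deposited by the authors, with the position and score of each peak. Depth is unknown, so no interval was computed.

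Positions were counted from 1, organelle peaks were left out, and percentiles were taken with scores capped at 3100. Gene positions and lengths came from the RefSeq table of TAIR10.1, taken to share the frame of TAIR10; its coordinates are not printed. Strand, exons and sequences were not used here. All 42 genes of the 5 related lists were matched by locus tag. Glycine-rich genes were to be found by protein composition and were instead found by the words "glycine-rich" in the names and synonyms of the table. Ties among them were ordered by locus tag, and promoter motifs were not searched. The members and lists were chosen with earlier results of these data known. Named were the members, their nearest genes and those their peaks overlap, the 3 most alike per member with peaks in 2 lists or more, the 5 highest glycine-rich genes, and list genes with peaks throughout; other names were chosen after their values were seen. Counting and merging were tested on simulated peaks (Python 3.11.15, pandas 2.3.3). The alternatives were a score of at least 100, other flanks, equal list lengths, a 50% overlap and leaving out each replicate.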

Additional observations from a re-analysis of the deposited data

How the results depend on the processing

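Of 128 values recomputed under the alternatives, 116 stayed within 1.5 times the main value, and GRP5 and GRP23 kept a peak in every list used under each score, flank, list length and left-out replicate tried. With a score of at least 100, GRP9 and GRP3S had a peak in 0 lists, 2 members had a replicate 2 peak, and 3.36% of protein-coding genes had a peak in each list. With the gene body only, that share was 3.75%, and 2 of the 14 extensin and proline-rich protein genes had a peak in each list. With a flank of 2000 bp GRP3 had a peak in 1 list, and with lists of equal length (3661 peaks) GRP9 had one in 1 list. Leaving out each replicate in turn, the share of genes with a peak in each remaining list ranged from 7.05% to 9.76% (9.76% without replicate 3). Likewise 1 to 2 of the 4 listed neighbours on chromosome 2 had a peak in each remaining list (2 without replicate 1 and 2 without replicate 2), and GRP3S had a peak in 0 to 1 of them, 0 without replicate 2. Neither a flank of 500 bp nor an overlap of 50% of the shorter peak, which was applied to 1 value only, moved a value by over 1.5 times. The cause of these shifts was not tested beyond the smaller sets of peaks or wider windows that the settings use. No paired analysis was possible because the input samples have no list and the ChIP samples form a single group. Peak lists hold no counts, so weak and missing peaks cannot be graded by depth.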

Other observations

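Of the 54 protein-coding genes that lay wholly inside a peak in each list, 2 were members or other genes named glycine-rich. These were GRP5 and the cold-shock gene GRP2B. Among all 27444 protein-coding genes, 5 were members and 15 were other genes named glycine-rich. AT2G05580, listed here among the glycine-rich neighbours on chromosome 2 but without that word in its name or synonyms, was also among the 54. The 54 genes were short, with a median length of 518 bp against 2078 bp over all protein-coding genes, and 10 of them, GRP5 included, were 1000 bp or longer. A best score of at least 1000 in each list was found for 21 of them, against 1.21% of all protein-coding genes. That best score was taken on the gene or within 1000 bp, and its peak need not be the one that contained the gene.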
